A study of Mus musculus with 2 samples.

Results

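The Ifi200 genes encode the mouse members of the PYHIN family of interferon-inducible DNA-binding proteins. The genes Ifi203, Ifi204, Ifi207, Ifi209, Ifi211, Ifi213, Mndal and Aim2 were followed through the cells of the mouse uterus. These members are 8 of the 32285 genes listed in both count matrices and were chosen by symbol. Whole uteri of females aged 6 months were dissociated, and transcript 3′ ends of single cells were sequenced from droplets. The control library came from mice titled Prickle1 f/f, which carry floxed alleles of the planar cell polarity gene Prickle1. The other library came from mice titled Prickle1 f/f Ltf-cre, which carry the same alleles and a Cre driven by Ltf, a gene transcribed in uterine epithelium, and is called cKO, for conditional knockout, as in the design text. Both genotypes therefore share the floxed alleles. One library was made per genotype, each pooling 3 mice, so every contrast between genotypes is also a contrast between pools, dissociations and libraries, and these cannot be told apart. A separate genotype entry reads C57BL/6J wild-type for both samples, and the groups used here follow the titles.

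A typical PYHIN protein joins a pyrin domain, which binds other pyrin domains, to HIN domains, which bind double-stranded DNA. AIM2 assembles an inflammasome on cytosolic DNA with the adaptor ASC, encoded by Pycard, and caspase-1. IFI204 is a sensor that signals through STING and is often compared with human IFI16. Mndal is named for its likeness to the human myeloid gene MNDA. Type I interferon induces genes that carry the interferon-stimulated response element in their promoters.

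All 8 genes lie on chromosome 1 of GRCm38 between 173350879 and 173942672 in GENCODE M21, a span of 592 kb. Aim2 stands at one end, on the plus strand from 173350879 to 173466040, and Ifi209 is on the plus strand as well, from 173630917 to 173647928. The other 6 members are on the minus strand: Ifi213 (173566283 to 173599274), Ifi207 (173723427 to 173741747), Ifi204 (173747293 to 173766943), Mndal (173849126 to 173942491), Ifi211 (173896345 to 173913046) and Ifi203 (173920407 to 173942672). The annotated Mndal gene overlaps both Ifi211 and Ifi203 on the same strand. Within this span or next to it lie 5 further family genes that the files list, Ifi202b, Ifi205, Ifi206, Ifi208 and Ifi214.

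**Figure D1:**
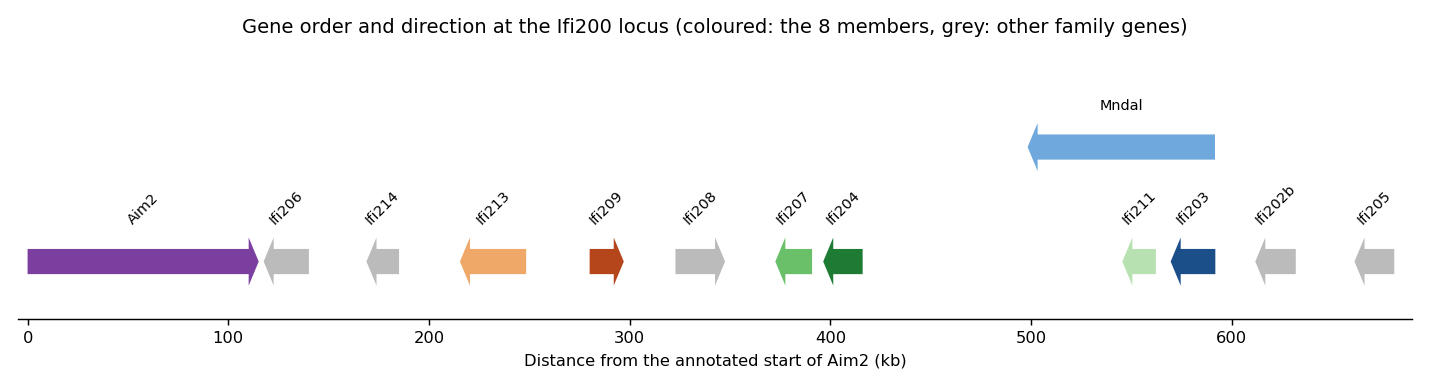
Gene order and direction at the locus, drawn to scale as the distance in kb from the annotated start of Aim2, with the 8 members in colour and the 5 other family genes in grey. Mndal is raised because its annotated gene overlaps Ifi211 and Ifi203 on the same strand.

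The core of the interferon-stimulated response element, GAAA followed by any 2 bases and then GAAA again, was searched on both strands in the 250 bases upstream of each RefSeq transcript start on GRCm38.p6. An entry was matched by symbol for 7 of the 8 members, the exception being Ifi204. The motif was present upstream of 5 of these 7 members, against 3.46% of the 27025 genes with a promoter entry. It was also present upstream of 4 of the 5 other family genes of the locus. No match was found for Ifi209 or Aim2. A second interferon motif, the gamma-activated site TTCNNNGAA, was found in 0 of the 7 members and in 8.13% of all genes. The matches on the strand of the gene are shown with 10 bases on either side because they place the same short element close to the start of 5 neighbouring paralogs. Each reads 5′ to 3′ on the minus strand of chromosome 1, the strand of the gene, with the motif in capitals:
Ifi203: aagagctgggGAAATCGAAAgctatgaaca
Mndal: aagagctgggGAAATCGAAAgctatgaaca
Ifi211: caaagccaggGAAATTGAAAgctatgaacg
Ifi213: cgtctctgagGAAATCGAAAgctatgaacc
Ifi207: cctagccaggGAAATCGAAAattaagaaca

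These windows lie at chr1:173942508-173942537 for Ifi203, chr1:173880204-173880233 for Mndal, chr1:173913064-173913093 for Ifi211, chr1:173599326-173599355 for Ifi213 and chr1:173741831-173741860 for Ifi207. The first base of the motif was 35 bases before a start of Ifi203, 36 before one of Mndal, 37 before Ifi211, 41 before Ifi207 and 73 before Ifi213. Mndal had a further match on the opposite strand, 54 bases before another of its starts, which is not shown. The Ifi203 and Mndal windows were identical in 30 of 30 bases although they are separate places in the genome. Every other pair of these windows matched at 20 to 24 of 30 bases.

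The control library held 45035801 counts of unique molecular identifiers (UMIs, each standing for 1 captured transcript) and the cKO library 57145553. Barcodes with at least 500 genes and at most 20% mitochondrial UMIs gave 3653 control and 4950 cKO cells, and 5 cell barcodes occurred in both libraries. Cells were assigned by a UMI of 1 gate and none of the others: Epcam for epithelial (961 control and 135 cKO cells), Pdgfra for stromal (623 and 1464), Actg2 for muscle (289 and 535), C1qa for macrophage (228 and 110), Flt3 for dendritic (42 and 134) and Cd3e or Ncr1 for lymphoid cells (155 and 427). All 5 check markers of each class were highest in their own class in both libraries, except for the dendritic class, where 4 of 5 were in control and 3 of 5 in cKO. Itgax was higher in macrophages in both libraries, and H2-Aa in those of cKO. Most dendritic-gated cells carried Ccr7, a marker of mature dendritic cells: 41 of 42 in control and 127 of 134 in cKO. Muscle-gated cells were shallow, with a median of 1504 UMIs in control and 1570 in cKO. Prickle1 itself had 15 UMIs in control epithelial cells (0.865 CPM, the UMIs of a gene scaled to the total UMIs of its class) and 16 in cKO epithelial cells (3.93 CPM), so the target was not lower in the library labelled cKO. Reads come from the 3′ end and the deleted part is not given in the sources used here, so this does not check the deletion.

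Levels below are CPM of the class. A UMI counts a transcript end, so levels of paralogs are compared without a length correction. Intervals are exact 95% intervals and cover counting error only. Part of the transcript end was alike between some paralogs. Of the 90-base windows in the last 500 bases of the annotated transcripts, 58.6% of those of Ifi209 were shared with Ifi214 and 59.4% of those of Ifi211 with Ifi205 or Mndal. The figure was 7.54% for Ifi213 and 4.25% for Mndal, and 0 for Ifi203, Ifi204, Ifi207 and Aim2, so the split of reads is uncertain mainly for Ifi209 and Ifi211.

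Together the 8 members were most abundant in macrophages and dendritic cells in control, in macrophages in cKO, and least abundant in epithelial and muscle cells in both libraries. In control, their summed level was 2801 CPM in dendritic cells, 2738 in macrophages, 1239.6 in stromal cells, 785 in lymphoid cells, 308 in muscle cells and 269 in epithelial cells. The intervals of the dendritic (2658 to 2950 CPM) and macrophage (2664 to 2814) sums overlapped, and those of the other neighbours in this order did not, except for muscle (269.2 to 351) and epithelial cells (261 to 277). In cKO, the order was macrophage at 1394 CPM, stromal at 547, dendritic at 438, lymphoid at 234, epithelial at 173 and muscle at 107. RNA in barcodes with at most 100 UMIs, taken as cell-free, held 434 CPM of the members in control and 286 in cKO. Epithelial and muscle sums were below the cell-free level in both libraries, and the lymphoid sum was below it in cKO.

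The make-up of the 8 members differed between most classes. The share of a member is its part of the UMIs of all 8 in that class and library, which needs no scaling between libraries. Stromal cells relied on Ifi203 (33.6% in control, 26.9% in cKO), Mndal (28.3% and 19.9%) and Ifi204 (19.0% and 26.6%). Ifi209 reached only 0.350% and 0.158% there, Ifi213 0.0999% and 0.0216%, and Aim2 0.0699% and 0.122%. The leading pair in cKO stromal cells was close, with Ifi203 at 146.8 CPM and Ifi204 at 145.2, and Ifi204 led under 3 of 9 other settings (2 gate UMIs, 10 Actg2 UMIs and thinning). Muscle cells had the same 3 leaders in both libraries, with Ifi203 at 30.5% and 29.2%, but these were also the 3 most abundant members of the cell-free RNA. Cell-free levels were 91.2 CPM in control and 52.1 in cKO for Ifi203, 88.1 and 66.5 for Mndal and 93.1 and 56.0 for Ifi204, so the make-up of muscle cells was not separated from free RNA.

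**Figure D2:**
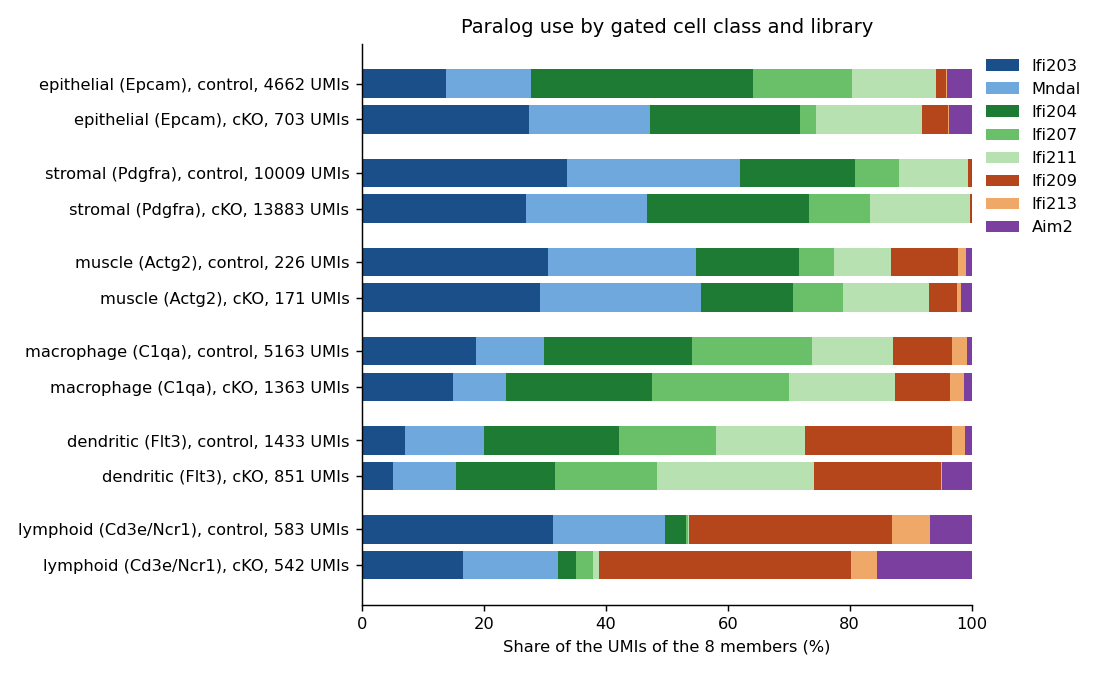
Share in percent of the summed UMIs of the 8 members that each paralog held, one bar per gated class and library with the number of member UMIs beside it. Blue marks Ifi203 and Mndal, green Ifi204, Ifi207 and Ifi211, orange Ifi209 and Ifi213, and purple Aim2. Ifi209 takes 33.3% and 41.3% of the lymphoid bars and under 1% of the stromal bars.

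Macrophages were led by Ifi204 and Ifi207. Ifi204 stood at 666 CPM in control and 335 in cKO, and Ifi207 at 538 and 313. Their shares were nearly equal between libraries, 24.3% and 24.1% for Ifi204 and 19.7% and 22.5% for Ifi207. Ifi213 had its highest level there, 67.4 and 32.7 CPM, although in control the interval overlapped that of dendritic cells. Aim2 was the least abundant, at 19.1 and 16.4 CPM, below its cell-free level. Without the 1 cell with most member UMIs in each library, Ifi207 led in cKO macrophages.

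Dendritic cells carried more Ifi209 than other classes did in control. Ifi209 was at 674 CPM in control dendritic cells (24.1% of member UMIs) and at 91.0 CPM in cKO (20.8%). Ifi204 followed in control at 620 CPM, with overlapping intervals, and stood at 71.5 CPM in cKO. Ifi211 led in cKO at 113 CPM, with an interval that overlapped that of Ifi209, and a share of 25.7% against 14.7% in control. Ifi203, the leader of stromal cells, made up 6.98% and 5.05% in dendritic cells, and in cKO both it and Mndal were below their cell-free levels there.

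Lymphoid cells had much Ifi209, which was scarce in stromal cells. Ifi209 led with 261 CPM in control and 96.5 in cKO, shares of 33.3% and 41.3%. Ifi203 stood at 246 and 38.8 CPM, and Mndal at 144 and 36.2, both above their cell-free levels in control and below them in cKO, where Ifi209, Ifi213 and Aim2 were the members above theirs. The 3 paralogs Ifi204, Ifi207 and Ifi211, common in macrophages, were scarce: Ifi204 had 20 and 16 UMIs, Ifi207 2 and 15, and Ifi211 1 and 6. Ifi203 and Ifi209 had overlapping intervals in control. Ifi203 led in both libraries when cells passing several gates were counted in each class, and in control also when cells were averaged. Aim2 made up 6.86% of lymphoid member UMIs in control and 15.5% in cKO, its largest shares of the 6 classes.

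In control epithelial cells Ifi204 was the most abundant, at 98.1 CPM (36.5%), followed by Ifi207 at 43.5 CPM. Their cell-free levels were 93.1 and 53.1 CPM, so Ifi204 was slightly above its own and Ifi207 below. Mndal, Ifi203 and Ifi211 stood at 37.3, 37.2 and 37.2 CPM with overlapping intervals. In cKO the leader was Ifi203 at 47.4 CPM (27.5%), with Ifi204 at 42.5 and Ifi207 at 4.42. The intervals of Ifi203 and Ifi204 overlapped, and another member led under 3 of 10 other settings (Ifi204 with 2 gate UMIs or without cells with Dcn, Mndal with cells averaged). Cell-free levels in cKO were 52.1 CPM for Ifi203, 56.0 for Ifi204 and 26.3 for Ifi207, all above the epithelial values, so the epithelial order does not separate the RNA of the cells from free RNA. The cKO epithelial set also carried stromal transcripts: the sum of 5 stromal markers was 3069 CPM against 270.1 in control, with all 5 higher. In cKO 40 of the 135 cells (29.6%) had at least 5 UMIs of the stromal gene Dcn, against 30 of 961 (3.12%) in control. Also higher were the sums of muscle (454 against 32.1 CPM, 5 of 5 markers), lymphoid (266 against 12.9, 4 of 5), mesothelial (243 against 14.2, 2 of 2) and endothelial markers (36.3 against 3.52, 2 of 2). In cKO, Acta2 alone made up 351 CPM of the muscle sum and Il2rb alone 249 CPM of the lymphoid sum. The part of these other markers was not tested.

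Leaving out the cells with 5 or more Dcn UMIs, an alternative chosen after the data were seen, changed the epithelial picture. Ifi203 was then at 29.4 CPM in 931 control cells and 3.34 CPM in 95 cKO cells, a log2 difference of −3.14 in place of 0.35. Ifi204 was at 97.0 and 26.0 CPM and led in both libraries. Ifi207 was at 44.5 and 4.67 CPM, and Mndal had 527 and 33 UMIs (log2 −1.53). Ifi209 was higher in cKO, at 4.58 and 10.0 CPM, from 76 and 30 UMIs. Both levels were below its cell-free levels of 28.7 CPM in control and 21.4 in cKO. The intervals of the ratios of Aim2 (−1.07 to 0.20) and of Ifi213 (5 and 1 UMIs) included 0. In control, 34.2% of those 76 UMIs came from 1 cell.

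**Figure D3:**
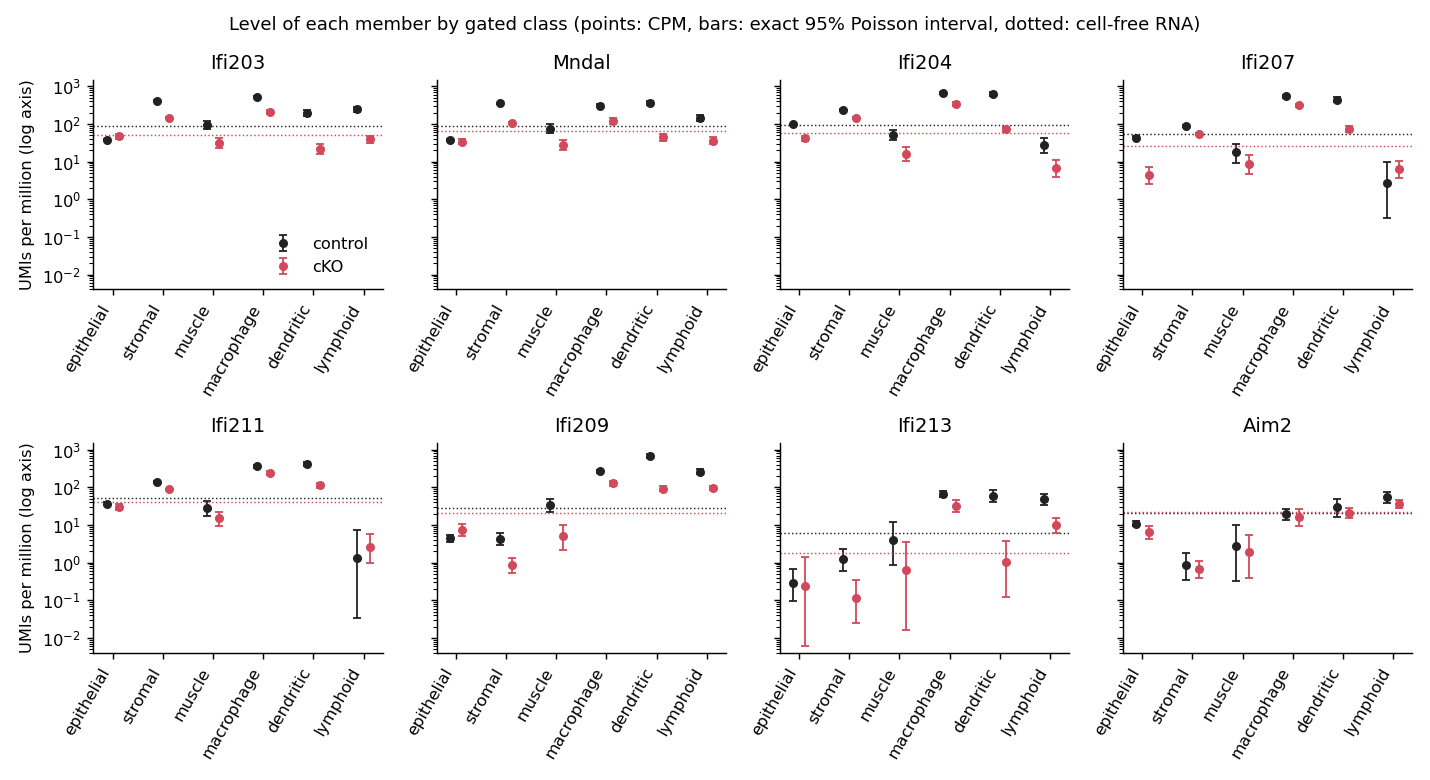
Level of each member in CPM on a log axis for the 6 gated classes, with control in black and cKO in red. Points are class sums, bars exact 95% Poisson intervals, and dotted lines the level in cell-free barcodes of the same library. Ifi207 and Ifi211 are lowest or near lowest in lymphoid cells, and Ifi209 is lowest in stromal cells.

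Across classes the members differed in range. Ifi203 ranged 13.8-fold in control, from 512 CPM in macrophages to 37.2 in epithelial cells, and 9.43-fold in cKO, from 209 in macrophages to 22.1 in dendritic cells. Mndal ranged 9.74-fold and 4.24-fold, with dendritic, stromal and macrophage levels at 364, 351 and 305 CPM in control. The dendritic and stromal intervals of Mndal overlapped. Ifi207 spanned 199.9-fold in control and 70.8-fold in cKO, with macrophages highest in both. Ifi211 spanned 306-fold and 93.3-fold, Ifi209 156-fold and 146-fold, and Ifi213 234-fold and 277-fold. The low ends of Ifi207, Ifi211 and Ifi213 rest on 1 to 5 UMIs in control, and in cKO on 18 for Ifi207, 6 for Ifi211 and 3 for Ifi213.

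Aim2, the inflammasome sensor, had the same class order in both libraries. It was highest in lymphoid cells (53.9 CPM in control, 36.2 in cKO), then dendritic (29.3 and 21.1), macrophage (19.1 and 16.4), epithelial (10.8 and 6.38), muscle (2.73 and 1.88) and stromal cells (0.867 and 0.669). The intervals of lymphoid and dendritic Aim2 overlapped in control and not in cKO. Dendritic and macrophage intervals overlapped in both libraries. Cell-free Aim2 stood at 20.9 and 21.9 CPM, so only the lymphoid level was above it in both libraries.

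Over the 12 class sums (6 classes in 2 libraries), Pearson correlations of log2(CPM + 1) were high within 3 sets of members. Ifi203 and Mndal correlated at 0.92. Ifi204, Ifi207 and Ifi211 correlated with each other at 0.92 to 0.93. Ifi209 correlated with Ifi213 at 0.90 and with Aim2 at 0.84, and Aim2 with the first 5 at −0.19 to 0.06. The sets were not sharply apart: Mndal correlated with Ifi204 at 0.77 and with Ifi207 at 0.65, and Ifi203 with Ifi204 at 0.67, while Ifi213 and Aim2 correlated at 0.70. The points share libraries and depth.

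**Figure D4:**
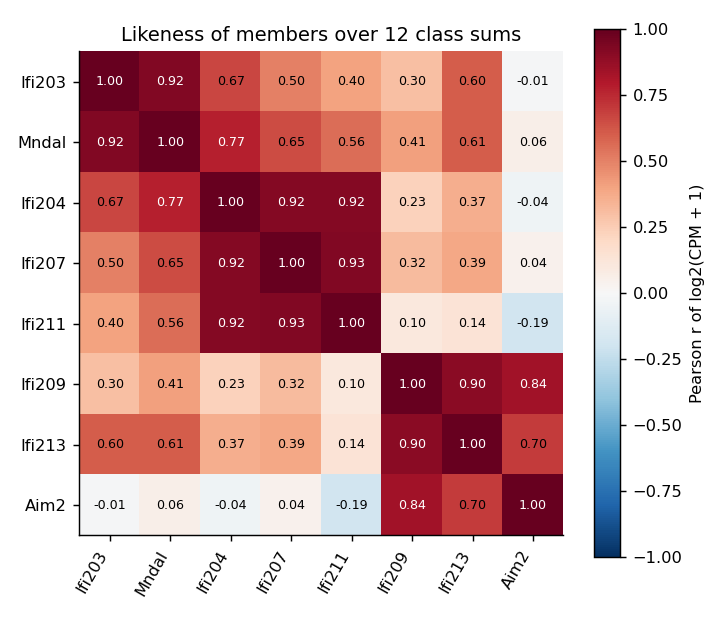
Pearson correlation of log2(CPM + 1) between members over the 12 sums of 6 classes in 2 libraries, coloured from blue (−1) to red (1), with the value in each cell. The blocks are Ifi203 with Mndal, Ifi204 with Ifi207 and Ifi211, and Ifi209 with Ifi213 and Aim2.

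The genes most like the 8 summed members among 11496 compared were Slfn5 (r 0.91), Ndst2 (0.89), Npc2 (0.89), Ifi27l2a (0.88), Jag1 (0.85) and Ogfr (0.84). For Ifi203, after Mndal, they were Acap2 (0.86) and Iigp1 (0.84), an interferon-inducible GTPase. For Mndal they were Ifi203, Acap2 (0.83) and Txn1 (0.80). Zmynd15 was among the 3 nearest genes of Ifi204 (0.90), Ifi207 (0.91) and Ifi211 (0.96), and the other 2 nearest of Ifi211 were Abcc1 (0.96) and Ifi205 (0.96). Ifi209 was like Samhd1 (0.96), which encodes a dNTP hydrolase, and Sp110 (0.94). Ifi213 was most like Ifi206 (0.98), Slfn1 (0.96) and Slfn8 (0.95), and Aim2 most like Parp4 (0.96), H2-Q6 (0.96) and Psme2b (0.96).

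The summed members were lower in the cKO library in each of the 6 classes. The log2 ratio of cKO to control was −0.64 in epithelial, −1.18 in stromal, −1.52 in muscle, −0.97 in macrophage, −2.68 in dendritic and −1.75 in lymphoid cells. As folds, the dendritic sum was 6.40 times lower (5.87 to 6.97) and the macrophage sum 1.96 times lower (1.85 to 2.09). The epithelial ratio was the least stable: −1.60 without the cells with Dcn, −0.035 when each cell was thinned to 1000 UMIs and 0.17 when cells were averaged. Another scaling, median-ratio size factors, put the median gene at 0.50 above 0 in epithelial, 0.21 in macrophage, 0.14 in dendritic and 0.10 in lymphoid cells, and relative to it the sums were −1.14, −1.18, −2.82 and −1.85.

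Counts of members can be read against all genes with at least 20 UMIs in the library with more. In dendritic cells 7 of 8 members were at least 2-fold lower in cKO, where 4.23% of all genes were, and in lymphoid cells 5 of 6, against 2.24%. The figures were 4 of 5 in muscle cells against 2.39%, 4 of 8 in macrophages against 4.76%, 3 of 6 in stromal cells against 5.42% and 2 of 7 in epithelial cells against 9.79%. The muscle and stromal counts include Ifi209, with 84.0% and 45.7% of its control UMIs from 1 cell in each class. No member that reached 20 UMIs was at least 2-fold higher in any class, against 27.2% of all genes in epithelial, 18.3% in dendritic, 9.26% in lymphoid, 8.58% in muscle, 7.9% in macrophage and 6.11% in stromal cells. Lymphoid Ifi207, with 2 and 15 UMIs, was below that minimum (log2 1.26, interval from −0.84 to 4.44). Without the epithelial cells with Dcn, 4 of 7 members were at least 2-fold lower, against 11.1% of all genes, and 1 of 7, Ifi209, at least 2-fold higher, against 22.1%. Under median-ratio scaling, genes at least 2-fold lower and higher numbered 2248 and 1936 in epithelial cells, in place of 1222 and 3401, and 490 and 324 in macrophages, in place of 319 and 529. The members had been chosen with these libraries known, so the counts are a description.

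**Figure D5:**
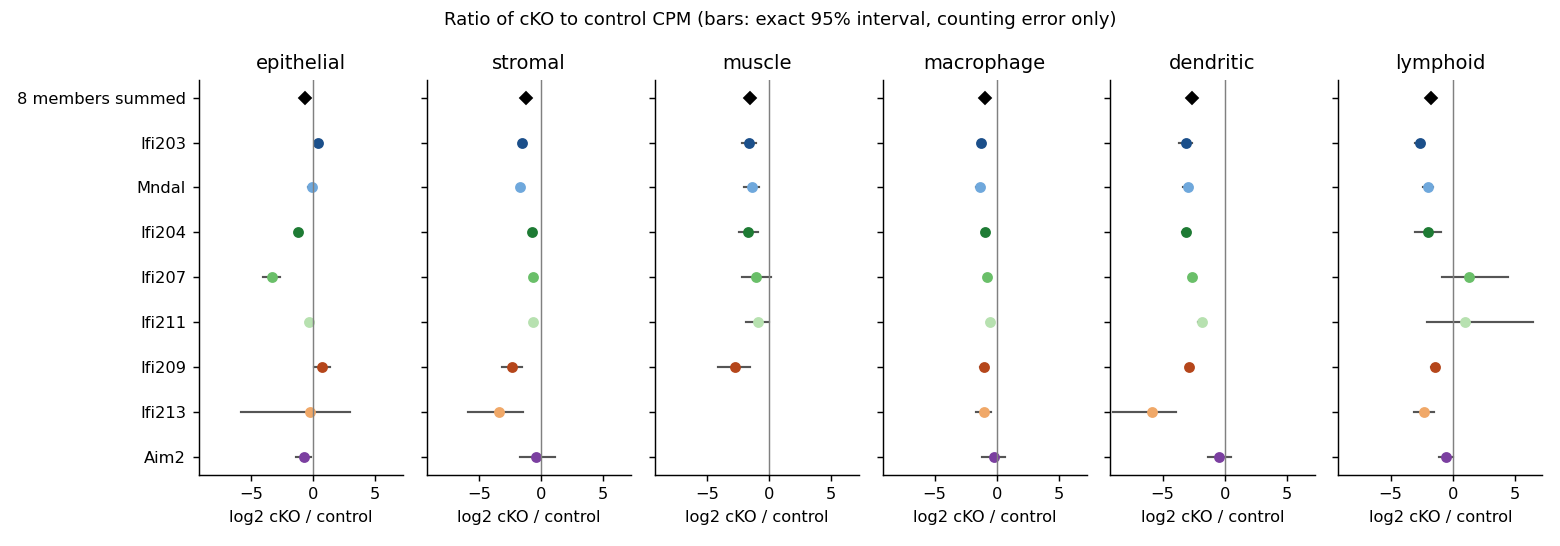
Log2 ratio of cKO to control CPM for the 8 members and their sum (diamond) in each gated class, with exact 95% intervals for counting error; muscle Ifi213 and Aim2 had at most 3 UMIs in each library and are left out, and intervals are drawn no further than −9 and 7. Most points lie left of 0, Aim2 lies closest to 0 in macrophages and dendritic cells, and Ifi203 and Ifi209 lie right of 0 in epithelial cells.

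The members did not differ between libraries by a common factor. In stromal cells Mndal went from 351 CPM in control to 109 in cKO (log2 −1.70) and Ifi203 from 417 to 147 (−1.51). Ifi204 (235 and 145), Ifi207 (88.3 and 55.1) and Ifi211 (141 and 89.4) had smaller ratios, −0.70, −0.68 and −0.66, whose intervals did not overlap those of Mndal and Ifi203. In cKO stromal cells dendritic markers (46.1 against 112 CPM in control) and all 5 epithelial markers were lower. Lymphoid markers were higher (35.4 against 16.0 CPM, of which Il2rb made up 31.2 and 11.9). The part of these markers was not tested. In macrophages the same order held, with overlapping intervals between neighbours: Mndal at −1.35, Ifi203 at −1.29, Ifi204 at −0.99, Ifi207 at −0.78 and Ifi211 at −0.59. Dendritic markers summed to 9575 CPM in control and 13491 in cKO macrophages and mast cell markers to 4.24 and 109, and their part was not tested.

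In dendritic cells Ifi203 went from 195 CPM to 22.1 (−3.14), Ifi204 from 620 to 71.5 (−3.12), Mndal from 364 to 45.3 (−3.01), Ifi209 from 674 to 91.0 (−2.89) and Ifi207 from 446 to 73.0 (−2.61). Ifi211 had a smaller ratio, from 412 to 113 CPM (−1.87), and Ifi213 went from 31 UMIs to 2. Of the 43 cKO UMIs of Ifi203, 17 came from the 7 cells without Ccr7, and the 127 cells with Ccr7 stood at 14.0 CPM. Aim2 stood at 29.3 and 21.1 CPM, a ratio of −0.48 with an interval from −1.36 to 0.48 that did not overlap those of the other 7. The cKO dendritic set had 370 CPM of the 5 lymphoid markers, all at 0 in control and mostly Il2rb (336 CPM) in cKO, and 284 against 95.8 CPM of stromal markers. Mast (350 against 180, nearly all Kit), endothelial (60.7 against 7.82) and muscle markers (36.0 against 13.7) were also higher. Epithelial (37.5 against 104) and macrophage markers (19.0 against 39.1) were lower. The part of these markers in the ratios was not tested. Counting cells that pass several gates in each class gave −1.89 for the dendritic sum.

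In lymphoid cells Ifi203 was lowest relative to control (−2.67), then Ifi213 (−2.29), Mndal (−1.99), Ifi204 (−1.97) and Ifi209 (−1.44). Aim2 was at −0.57, with an interval from −1.13 to 0.01. Dendritic markers summed to 989 CPM in cKO lymphoid cells and 109 in control, and stromal markers to 261 and 57.9, and their part was not tested. In muscle cells Ifi209 went from 34.1 to 5.02 CPM, but 84.0% of its 25 control UMIs came from 1 cell. Ifi203 there went from 94.0 to 31.4 CPM and Mndal from 75.0 to 28.2, against cell-free levels of 91.2 and 52.1 CPM and of 88.1 and 66.5. Beside this, dendritic markers were at 474 and 992 CPM, lymphoid markers at 53.2 and 260.5 (Il2rb 47.7 and 234), and epithelial markers at 206 and 20.7. The part of these markers was not tested.

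Genes with alike transcript ends were also added up, although this covers neither reads that Ifi211 shares with Mndal nor any shared reads left uncounted. Ifi211 and Ifi205 together stood at 495 CPM in control and 356 in cKO stromal cells (log2 −0.47) and at 1149 and 236 in dendritic cells (−2.29). In macrophages they stood at 612 and 546 CPM (−0.16), a smaller difference than that of Ifi211 alone, and in epithelial cells at 61.2 and 87.9 (0.52), where Ifi211 alone was at −0.30. Ifi209 and Ifi214 together gave −2.95 in dendritic, −1.61 in lymphoid and −1.18 in macrophage cells, close to Ifi209 alone.

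Shares of cells with a UMI were compared after each cell was thinned to 1000 UMIs, leaving out 71 control and 109 cKO cells with fewer. At least 1 member was then found in 71.4% of dendritic, 69.3% of macrophage, 53.3% of stromal, 33.3% of lymphoid, 15.9% of epithelial and 14.2% of muscle cells in control. In cKO the shares were 28.4%, 51.4%, 34.9%, 19.6%, 16.3% and 5.44%. Without thinning they were 95.2%, 91.7%, 89.2%, 67.7%, 53.2% and 20.4% in control and 82.8%, 91.8%, 80.9%, 55.3%, 63.7% and 11.6% in cKO. The thinned share was thus lower in cKO in every class but the epithelial one, whose intervals overlapped.

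Thinned shares of single members can be set beside those in classes with little of the gene. Ifi209 was found in 40.5% of control dendritic, 19.1% of macrophage and 16.3% of lymphoid cells, against 0.489% of stromal and 0.210% of epithelial cells. In cKO it was found in 8.96%, 6.42% and 9.20%, against 0.0688% and 2.22%, and the intervals of the first 3 overlapped. Ifi207 was found in 36.0% of control macrophages and 0 of 153 lymphoid cells, which allows up to 1.96% of thinned cells with a UMI. Before thinning, 2 of 155 control lymphoid cells had one. Median depths before thinning were 11763 UMIs in control stromal, 7930.5 in macrophage and 4203 in lymphoid cells. Aim2 was in at most 4.76% of the thinned cells of any class and library.

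Paralogs were often found in the same cell at full depth in dendritic, macrophage and stromal cells, and less often after thinning. At full depth, 64.3% of control dendritic cells, 53.1% of macrophages and 41.1% of stromal cells had UMIs of 4 or more members, against 11.8% of epithelial cells. The cKO values were 23.9%, 33.6%, 32.4% and 11.1%. After thinning, 2 or more members were found in 52.4% of control dendritic cells and 48.4% of macrophages, and in 6.72% and 23.9% of those of cKO. In control and cKO these shares were 22.3% and 9.02% in stromal, 11.8% and 1.65% in lymphoid, 2.73% and 2.96% in epithelial and 3.33% and 0.454% in muscle cells.

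Within the lymphoid gate, cells with Ncr1 alone (an NK cell receptor gene, 19 control and 36 cKO cells) and cells with Cd3e alone (a T cell receptor component, 136 and 390 cells) shared Ifi209 as leader. In control the summed members stood at 1462 CPM in Ncr1 cells and 605 in Cd3e cells. In cKO they stood at 274 and 227 CPM, with overlapping intervals. Ifi209 made up 33.8% and 33.0% of member UMIs in control and 39.0% and 41.7% in cKO. The Ncr1 cells were deeper, with a median of 8240 against 4001.5 UMIs in control. Aim2 stood at 96.2 CPM in control Ncr1 cells and 70.3 in cKO, and at 42.6 and 31.2 CPM in Cd3e cells. In cKO, 21 of 82 member UMIs of Ncr1 cells were Aim2.

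Among control epithelial cells, the 79 with a UMI of the interferon gene Ifnb1 had 508 CPM of the members, against 224 in the other 882. Ifi207 stood at 117 against 29.7 CPM, Ifi211 at 81.1 against 29.0, Ifi204 at 169 against 85.0 and Aim2 at 18.0 against 9.51. Ifi209 went the other way, with 1 UMI against 75. The cells with Ifnb1 were deeper, with a median of 17602 UMIs against 5770.5, and the part of depth in this contrast was not tested.

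The 5 other genes of the locus did not all follow the members. At least 2-fold lower in cKO were 3 of 3 counted genes in dendritic, 3 of 3 in lymphoid, 4 of 5 in macrophage, 1 of 2 in stromal, 0 of 2 in epithelial and 0 of 1 in muscle cells. The shares over all genes were 4.23%, 2.24%, 4.76%, 5.42%, 9.79% and 2.39% in the same order. Ifi205 was higher in cKO epithelial cells, 57.7 against 24.0 CPM (log2 1.26), but not without the cells with Dcn, 15.7 against 16.4 (−0.07). Its cell-free level was 114 CPM in cKO and 54.7 in control. It was higher in cKO macrophages, 305 against 249.8 CPM (0.29). It was lower in dendritic cells, 123 against 737 CPM (−2.58), and in stromal cells, 267 against 353 (−0.40). Ifi206 (log2 −5.13), Ifi214 (−3.58) and Ifi205 accounted for the dendritic count.

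The 3 pathway lists, picked with earlier results of these data known, were set beside the members. Of 10 genes of the type I interferon response (receptor chains, kinases, transcription factors and feedback inhibitors), 5 of 10 counted were at least 2-fold lower in epithelial cells, 4 of 10 in stromal, 3 of 8 in muscle, 2 of 9 in macrophage, 3 of 10 in dendritic and 3 of 10 in lymphoid cells, and 0 were higher. Of genes of DNA sensing through STING, 2 of 9 were lower in epithelial, 2 of 9 in stromal, 1 of 6 in muscle, 0 of 9 in macrophage, 3 of 8 in dendritic and 4 of 9 in lymphoid cells. The 1 higher gene was Cgas, which encodes the DNA sensor cGAS, at 17.9 CPM in cKO and 1.90 in control epithelial cells (log2 3.23, and 3.15 without the cells with Dcn). The inflammasome list was Pycard, Casp1, Casp4, Gsdmd, Il1b, Il18, Nlrp3, Nlrc4 and Ninj1, so it is not limited to the AIM2 inflammasome. Of it, 1 of 8 in epithelial, 3 of 6 in dendritic and 1 of 6 in lymphoid cells were lower. Higher were 3 of 4 in muscle, 2 of 6 in lymphoid, 1 of 8 in epithelial, 1 of 8 in macrophage and 1 of 7 in stromal cells. In muscle cells these were Casp4, Il1b and Nlrp3, and Pycard, Casp1 and Gsdmd had too few UMIs to be counted. The stromal gene was Nlrp3. Over all genes, the shares at least 2-fold lower were 9.79% in epithelial, 5.42% in stromal, 2.39% in muscle, 4.76% in macrophage, 4.23% in dendritic and 2.24% in lymphoid cells. The shares at least 2-fold higher were 27.2%, 6.11%, 8.58%, 7.9%, 18.3% and 9.26%, so the 1 higher gene of 8 in epithelial cells was under the share of all genes.

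The list medians stood beside those of the members. In dendritic cells the median log2 ratio was −2.95 for the 8 counted members, −0.97 for the inflammasome list, −0.72 for the interferon list, −0.62 for the STING list and 0.32 for all genes counted. In stromal cells it was −1.10 for the members, −0.53 for the interferon list, 0.01 for the inflammasome list and −0.01 for the STING list and all genes. In macrophages it was −1.02 for the members, −0.36 for the interferon list, −0.47 for the STING list, 0.23 for the inflammasome list and 0.14 for all genes. In epithelial cells it was −0.30 for the members, −0.68 for the interferon, −0.63 for the inflammasome and −0.34 for the STING list and 0.41 for all genes. Without the cells with Dcn these were −1.53, −1.17, −0.60, 0.01 and 0.31. In muscle cells the values were −1.58 for the members, −0.64, 1.65 and −0.19 for the same 3 lists and 0.15 for all genes, and in lymphoid cells −1.98, −0.64, 0.04, −0.37 and 0.17.

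Some genes at the low ends of these lists recurred between classes. Irf7, which encodes the interferon-amplifying factor IRF7, was at 98.7 CPM in control and 7.36 in cKO epithelial cells (log2 −3.74), 11.4 and 1.54 in stromal cells (−2.89) and 324 and 18.5 in dendritic cells (−4.13). Usp18, a negative regulator of interferon signalling, was at 87.5 and 6.63 CPM in epithelial (−3.72), 22.3 and 2.09 in stromal (−3.42) and 68.7 and 4.74 in lymphoid cells (−3.86). Zbp1, a nucleic acid sensor, was at 104 and 7.76 CPM in lymphoid cells (−3.74). In muscle cells Stat2 was at −1.51. The lowest in macrophages were Ifi214 (−2.61) and Ifi208 (−2.59), which are other genes of the locus and not in the pathway lists.

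Il1b was higher in cKO in 3 classes and lower in the other 3. Il1b, the cytokine released after caspase-1 cleavage, was at 997 CPM in control and 2741 in cKO macrophages (log2 1.46), with 68 and 63 cells carrying it. In lymphoid cells it had 0 UMIs in control and 303 in cKO, from 10 cells and with 54.8% in 1 of them, and in muscle cells 1 and 228, from 9 cells. It was lower in dendritic cells, 3069 CPM in control and 1183 in cKO (−1.38), in epithelial cells, 30.6 and 8.84 (−1.79), and in stromal cells, 10.4 and 7.60 (−0.45). Apart from Il1b and Cgas, the highest were Il18 in epithelial (1.56, but −0.99 from 22 and 2 UMIs without the cells with Dcn), Nlrp3 (1.25) and Casp4 (0.66) in stromal, Nlrp3 in muscle (1.77), Ikbke in macrophage (0.80), Jak1 (0.93) and Irf3 (0.42) in dendritic and Ninj1 (1.57) in lymphoid cells. The intervals of stromal Nlrp3 and dendritic Irf3 included 0.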

How the data were processed

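The deposited files hold raw counts of UMIs per gene and barcode, unfiltered. Per the file headers the software was Cell Ranger 4, and per the submitters' processing notes Cell Ranger 6.1.1 with mm10; the annotation is not given in the sources used here. Members, gene lists and classes were chosen with earlier results of these data known. Cells were gated by 1 UMI of the class gene and 0 of the other gates; 170 control and 249 cKO cells passing several gates were left out in place of a doublet caller, and 1185 and 1896 cells passed none. Of gated cells, between 10.9% (cKO macrophage) and 48.1% (cKO epithelial) had a single UMI of their gate. Counts were summed per class and library and scaled to CPM. With 1 library per group no test was possible, and no p-value is given. CPM values have exact Poisson intervals, ratios exact conditional binomial intervals and shares of cells Clopper-Pearson intervals, at 95%, for counting error only. A count of 0 allows up to 3 counts, and no ratio is given where both libraries have 3 UMIs or fewer. The text names all 8 members, the 2 lowest and 2 highest other list genes per class, the 6 genes most like the sum and the 3 most like each member, among genes with at least 200 UMIs over all classes; 1 gene that this rule names is not reported here. Ratios were recomputed under 10 other settings, and 1 more was added after the data were seen. The fold counts and intervals were tested on simulated class sums with Poisson error only. UMIs gathered in single cells were not simulated, so this does not check the intervals for such genes. Gene positions come from GENCODE M21 (99.6% of gene identifiers matched) and promoter sequences from RefSeq on GRCm38.p6. Python 3.11.15, NumPy 2.4.6, SciPy 1.17.1 and pandas 2.3.3 were used.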

Additional observations from a re-analysis of the deposited data

Results flagged for a closer look

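Ifi203 and Ifi209 were higher in cKO than in control epithelial cells and lower in the other 5 classes; the difference between classes was not tested. For Ifi203 the log2 ratio was 0.35 in epithelial cells, −1.51 in stromal, −1.58 in muscle, −1.29 in macrophage, −3.14 in dendritic and −2.67 in lymphoid cells. For Ifi209 it was 0.75, −2.32, −2.76, −1.08, −2.89 and −1.44 in the same order. In stromal cells 45.7% of its 35 control UMIs came from 1 cell, and 0.963% of control and 1.02% of cKO cells had one. In muscle cells 84.0% of its 25 control UMIs came from 1 cell. Its stromal levels (4.33 and 0.866 CPM) and its epithelial levels were below the cell-free levels of 28.7 CPM in control and 21.4 in cKO. The epithelial Ifi203 value was −3.14 without the cells with 5 or more Dcn UMIs, and that of Ifi209 was 1.13.

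Cells without any gate UMI belong to no class of the report and carried the members too, at 860 CPM in control and 265 in cKO, against cell-free levels of 434 and 286. Ifi204 led there in control (20.3%) and Ifi209 in cKO (19.8%), where Aim2 made up 14.3%.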

How the results depend on the processing

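No paired analysis was possible because each group is 1 library. The stromal, muscle, macrophage, dendritic and lymphoid sums were lower in cKO under all 10 alternatives. Epithelial sums ranged from −1.60 (without cells with 5 or more Dcn UMIs, chosen after seeing the data) through −1.14 (median-ratio factors), −0.82 (2 gate UMIs) and −0.035 (thinned) to 0.17 (cells averaged). Thinning gave −1.11 for stromal, −1.83 for muscle and −1.06 for macrophage cells. Averaging cells gave −1.07 for stromal cells. Median-ratio factors gave −1.14 for stromal, −1.18 for macrophage and −2.82 for dendritic cells. Asking for 10 Actg2 UMIs gave −1.92 for muscle and −2.54 for dendritic cells. Overlapping gates gave −1.89 for dendritic and −1.19 for lymphoid cells, 2 gate UMIs −1.41 for lymphoid cells, and leaving out the top cell −1.08 for macrophages. Among single-member ratios whose interval lay off 0, signs changed in epithelial cells only: Ifi203 (−3.14 without Dcn cells, −0.15 with median-ratio factors), Ifi211 (0.88 thinned, 0.62 averaged) and Aim2 (0.84 averaged). The cause was not tested. Of 513 ratios recomputed, 426 moved by less than their interval, as did 690 of 880 shares. Ifi204 (control epithelial and macrophage), Ifi203 (control stromal and muscle), Ifi209 (control dendritic) and Ifi211 (cKO dendritic) led under every alternative run. With a minimum of 50 UMIs, genes at least 2-fold lower numbered 390 in stromal, 58 in muscle, 174 in macrophage, 171 in dendritic and 112 in lymphoid cells, and genes at least 2-fold higher 297 in muscle, 213 in macrophage, 614 in dendritic and 397 in lymphoid cells. Median-ratio factors gave 2248 lower and 1936 higher genes in epithelial cells and 490 and 324 in macrophages. Depth limits values that rest on few UMIs, such as lymphoid Ifi207 (2 and 15) and Ifi211 (1 and 6), muscle Aim2 (2 and 3) and stromal Aim2 (7 and 17).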
